A study of Mus musculus with 2 samples.

Results

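The E2 ubiquitin-conjugating enzymes are described here from arrays of pooled unfertilised mouse oocytes of a Mul1 knockout and its wild type. The genes were chosen by name, as every gene on the array whose symbol starts with Ube2, and 38 of 37074 gene names met that rule. They were read by 76 probes, of which 67 probes of 33 genes were well above background on both arrays. The other 5 names were Ube2d2b, Ube2dnl1, Ube2dnl2, Ube2u and Ube2uos. The name covers a few genes that are not conjugating enzymes. Ube2cbp encodes a protein that binds an E2 and now also goes by Ube3d, Ube2uos is a long non-coding RNA, and Ube2v1 and Ube2v2 encode E2 variants that lack the catalytic cysteine.

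The knockout group was RNA of 123 unfertilised oocytes lacking Mul1, and the wild-type group was RNA of 213 unfertilised oocytes with Mul1 intact, all from C57BL/6 mice. Amplified cRNA of each pool, carrying the dye Cy3, was put on 1 Agilent single-colour array, so a difference between the genotypes has no replicate check and no test was possible. Neither the age of the mice nor the part of Mul1 that was deleted is given in the sources used here. By its title the study is about oxidative stress in Mul1-deficient oocytes and the embryos they give, and the arrays compare the transcripts of the genotypes.

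Ubiquitin reaches a protein through a relay. An E1 enzyme activates it, an E2 carries it on a cysteine, and an E3 ligase brings the E2 to the substrate, and the E2 often decides which kind of ubiquitin chain is built. Related E2 enzymes carry SUMO, NEDD8 or ISG15 in place of ubiquitin. Oocytes rely on this relay to leave meiosis, because the anaphase promoting complex, an E3 served by its own E2 enzymes, marks cyclin B and securin for destruction. MUL1 is an E3 of the mitochondrial outer membrane for which both ubiquitin and SUMO ligase activity have been described, and human MUL1 has been reported to bind UBE2E2, UBE2E3, UBE2G2 and UBE2L3.

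The catalytic centre of an E2 is a histidine-proline-asparagine motif followed by the cysteine that takes the ubiquitin. A pattern search that left out the probes of Ube2d2a found probes of 2 measured genes on that part of the transcript. These probes are shown because they read the sequence that makes the protein an E2. In both lines the capitals mark the cysteine codon, and in Ube2l3 also the histidine-proline-asparagine codons. Both are 60-base probes given 5′ to 3′ in the transcript's direction, with positions on mouse build mm9. The Ube2l3 probe lies at chr16:17160127-17160186 on the minus strand and the Ube2e3 probe at chr2:78758877-78758936 on the plus strand.
Ube2l3: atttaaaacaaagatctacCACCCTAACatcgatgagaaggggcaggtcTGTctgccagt
Ube2e3: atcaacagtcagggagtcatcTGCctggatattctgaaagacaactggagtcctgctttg
The Ube2l3 probe gave a signal of 5252 on the knockout array and 5503 on the wild-type array, and the Ube2e3 probe gave 2267 on the knockout array and 2168 on the wild-type array. Neither signal differed between the arrays by more than the scanner's own error.

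Most of the family's largest differences rest on a single probe, so the starts of those probes are shown, with Ube2f, which lay below 0, beside them. Each line holds the first 30 of 60 bases. On mm9 the Ube2t probe lies at chr1:136870607-136870666, the Ube2m probe at chr7:13620939-13620998 on the minus strand, the Ube2c probe at chr2:164598016-164598075 and the Ube2f probe at chr1:93182405-93182464. Which exon or untranslated part of the transcript each covers was not analysed here.
Ube2t: ccttacaaaagaccttgtatgtttacgaat
Ube2m: atcgggtccacctacttcgagcgctgcctg
Ube2c: acctgcaagaaacctattcaaagcaggtct
Ube2f: gaagcttcccagaatgcatagtcattcact
Paralogues of a family can share probe signal where their sequences are alike. Among 2796 pairs of probes of different Ube2 genes, the most alike had 33 of 60 bases in common when aligned without gaps, and none had more than 40. Probes were compared only with other probes, not with the transcripts of other members. Whether a probe also reads a paralogue was therefore not tested.

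The knockout array had 36488 (64.5%) and the wild-type array 37369 (66.0%) of its 56600 gene probes well above background, with 0 saturated spots. Probes printed at 8 to 10 spots had a median SD between spots of 0.04 in the log2 difference. The pools carried RNA of other cells. The 11 cumulus and granulosa cell markers were all well above background, with a summed signal of 325434 on the knockout array and 311542 on the wild-type array. Summed signal of 12 myeloid markers was 82294 on the knockout array and 31987 on the wild-type array. All 12 were at least 1.5-fold higher in knockout, where 7.84% of all genes were. Csf1r was so as the mean of probes at 0.02 and 1.19 on the log2 scale. For 6 oviduct markers the summed signal was 121019 on the knockout array and 78612 on the wild-type array. For 6 red cell markers it was 23990.5 on the knockout array and 75935 on the wild-type array, with 5 of them well above background on both. Oocyte markers summed to 106966 on the knockout array and 115293 on the wild-type array. Most of these sums came from Gdf9, at 61515 in knockout and 68126 in wild type, and Oosp1, at 35398 and 39329. By gene, 6 of the 9 oocyte markers measured on both arrays were higher in knockout and 3 lower. Their median log2 difference was 0.19. The oocyte marker Figla, at 17.4 on the knockout array and 33.4 on the wild-type array, was not well above background in knockout. In a pool, fewer cells of a type and less RNA per cell cannot be told apart. Which cells of the pools gave the Ube2 signals was not tested.

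The Ube2 family as a whole was close to level between the genotypes. The median log2 difference, knockout minus wild type, was -0.01 over the 33 measured genes, against 0.03 over all 22921 genes. Values above 0 were found for 14 genes and values below 0 for 19. Scaling on spike-in controls raised every difference by the same amount, the median of all genes to 0.16 and that of the Ube2 genes to 0.13, and put 29 Ube2 genes above 0, so small signs hold only relative to the other genes. Ube2t alone was at least 1.5-fold higher in knockout, where 7.84% of all genes were. No Ube2 gene was at least 1.5-fold lower, where 5.19% of all genes were, and none differed by 2-fold in either direction, where 2.92% of all genes were higher and 1.37% lower. With spike-in scaling, 11.4% of all genes were at least 1.5-fold higher and 3.35% lower. Among the 5254 genes with mean signals in the middle 50% of the Ube2 range, 2.42% were at least 1.5-fold higher and 2.76% lower. The 1 gene of 33 lies near that background, although the 33 include genes outside that middle 50%. At 2-fold the background was 0.914% in each direction.

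The family's differences were packed narrowly around 0. Of the 33 genes, 27 (81.8%) lay within 0.2 of 0 on the log2 scale. The share was 65.4% for genes in the middle 50% of Ube2 signals and 52.4% for all genes. The 33 include brighter and dimmer genes outside that band, such as Ube2s and Ube2cbp, so the sets are matched in signal only in part. The median absolute difference was 0.09 for the Ube2 genes, 0.14 in the band and 0.19 over all genes. Ube2 genes were also averaged over more probes, 2.03 per gene against 1.66 in the band and 1.54 over all genes. The part of this in the narrow spread was not tested.

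**Figure D1:**
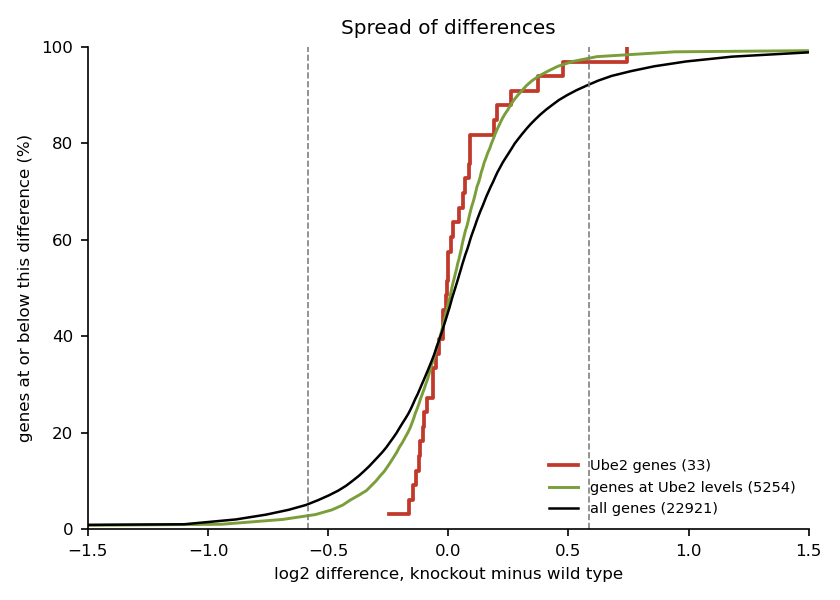
Cumulative share of genes (percent) by log2 difference, knockout minus wild type, for the 33 Ube2 genes, for 5254 genes in the middle 50% of the Ube2 signal range and for all 22921 genes. Dashed lines mark 1.5-fold; the Ube2 curve is the steepest around 0 and has a single step beyond the right-hand line, Ube2t at 0.75.

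Nearly every E2 was readily detected in the pools. The dimmest used probe had a signal of 18.1 on the knockout array and the dimmest on the wild-type array 19.5, and 31 of the 33 genes had a probe above 1000 on both arrays. The arrays followed each other closely over the 67 probes, with a correlation of log2 signals of 0.997, given as a description. Signals of different probes depend on the probe as well as on the transcript, so genes are not ranked by level.

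**Figure D2:**
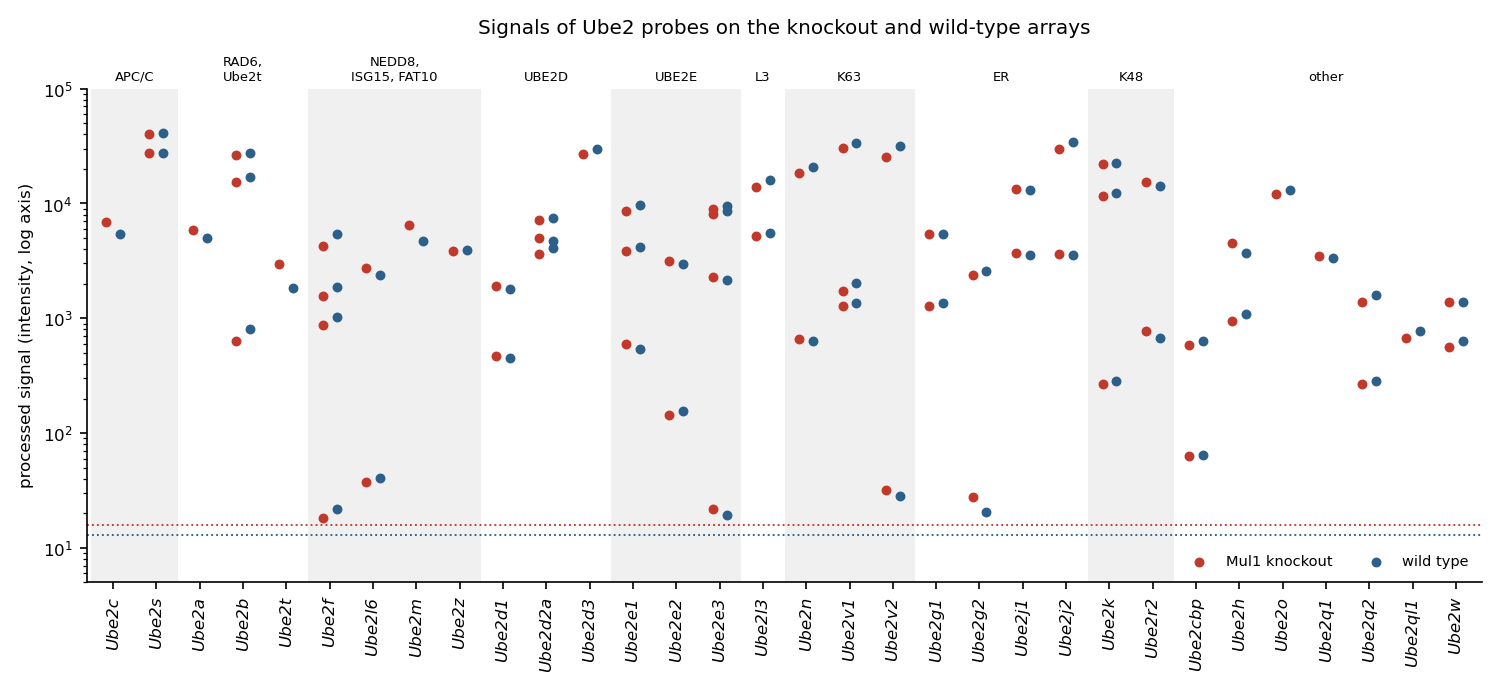
Processed signal (intensity, log axis) of the used probes of 32 Ube2 genes on the knockout array (red) and the wild-type array (blue), by gene and grouped by role; dotted lines mark the lowest signal well above background on each array, 15.8 in knockout and 12.9 in wild type. The points of the arrays lie side by side for nearly all probes, with Ube2t and Ube2m visibly higher in knockout.

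The anaphase promoting complex uses Ube2c to start ubiquitin chains on its substrates and Ube2s to lengthen them. Ube2c gave a signal of 6850.2 on the knockout array and 5416 on the wild-type array, a log2 difference of 0.37 or 1.29-fold higher. Ube2s was read by a pair of probes, with 39978 and 27770 on the knockout array and 40748 and 27676 on the wild-type array, a log2 difference of 0.02. Ube2c was read by 1 probe, with a scanner error of 0.20 in the difference. Its value of 0.37 lay between the 85th and 86th percentiles of the difference over all genes. Ube2s was level, with 0.35 on the log2 scale between the differences of these enzymes. Among ligase subunits that meet these enzymes, Anapc2 differed by 0.17 and Anapc11 by 0.13.

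Ube2a and Ube2b are the mouse versions of yeast RAD6, which ubiquitinates histone H2B with Rnf20 and Rnf40 and the clamp protein PCNA with Rad18. Ube2a is also known as a maternal gene that early mouse embryos need. It had a signal of 5849 on the knockout array and 4986 on the wild-type array, a log2 difference of 0.26, a little beyond the scanner's error for its single probe. Ube2b averaged -0.15, with 26484 on the knockout array and 27664 on the wild-type array at its brightest probe. Its other probes gave 15460.5 and 636 on the knockout array and 16839 and 813 on the wild-type array. All 3 probes of Ube2b were below 0. The brighter ones, at -0.03 and -0.09, were within the scanner's error, and the dimmest, at -0.32, was beyond it. With its mRNA probes alone Ube2b was at -0.06. The pair of near-identical enzymes thus lay on opposite sides of 0, with Ube2b close to level at its brighter probes.

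Ube2t works with the ligase Fancl to ubiquitinate Fancd2 in the repair of DNA crosslinks, the Fanconi anaemia pathway. Its probe gave 2984 on the knockout array and 1821 on the wild-type array, with scanner errors of 298 and 182. The log2 difference of 0.75, or 1.68-fold, was the highest of the family and exceeded the scanner error of 0.20. The result rests on that single probe. Another probe was well above background on wild type only, at 12.7 in knockout and 14.7 in wild type, and the last one on neither array, at 11.9 in knockout and 6.75 in wild type. Averaging all 3 without the filter gave 0.47, below 1.5-fold. Fancl differed by -0.26, with 999 on the knockout array and 1228 on the wild-type array. The 12 myeloid markers and 5 of the 6 oviduct markers were higher on the same array as Ube2t, Ube2c and Ube2m. The exception was Krt18, at -0.14. The part of these cells in the differences was not tested.

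NEDD8, which switches on cullin ligases, is passed on by a pair of E2 enzymes that divide the cullins between them. Ube2m works with Rbx1 on most cullins, and Ube2f works with Rnf7 on Cul5. Ube2m gave 6431 on the knockout array and 4729 on the wild-type array, a log2 difference of 0.48 or 1.39-fold, the second highest of the family, from 1 probe. Ube2f was the lowest of the family at -0.25, and all 4 of its used probes were below 0. They gave 4267, 1557, 881 and 18.1 on the knockout array against 5406, 1886, 1031 and 21.7 on the wild-type array, in the same probe order. With a stricter filter on dim probes Ube2v2, at -0.31, was lower than Ube2f, at -0.25. Ube2m and Ube2f thus lay on opposite sides of 0, 0.72 apart on the log2 scale, a distance that scaling between the arrays by one factor cannot alter. Nedd8 itself differed by 0.17, the E1 subunits Nae1 and Uba3 by 0.19 and -0.02, Rbx1 by 0.18, Rnf7 by 0.08 and the NEDD8 ligase subunit Dcun1d1 by -0.14.

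Ube2l6 carries ISG15, the interferon-induced modifier. Its mRNA probe gave 2724 on the knockout array and 2371 on the wild-type array, a difference of 0.23, while a dim probe gave 37.8 on the knockout array and 40.5 on the wild-type array, and the gene mean was 0.08. Isg15 was 0.78 higher, with 2506 on the knockout array and 1493 on the wild-type array. Uba7, the E1 for ISG15, differed by 0.28 and the ligase Herc6 by -0.01. The myeloid markers were higher in the same pool, and their part in these values was not tested. Ube2z, which takes ubiquitin or FAT10 from the E1 Uba6, differed by 0.00, with 3848 on the knockout array and 3941 on the wild-type array. Ubd, the FAT10 gene, was not well above background on either array.

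**Figure D3:**
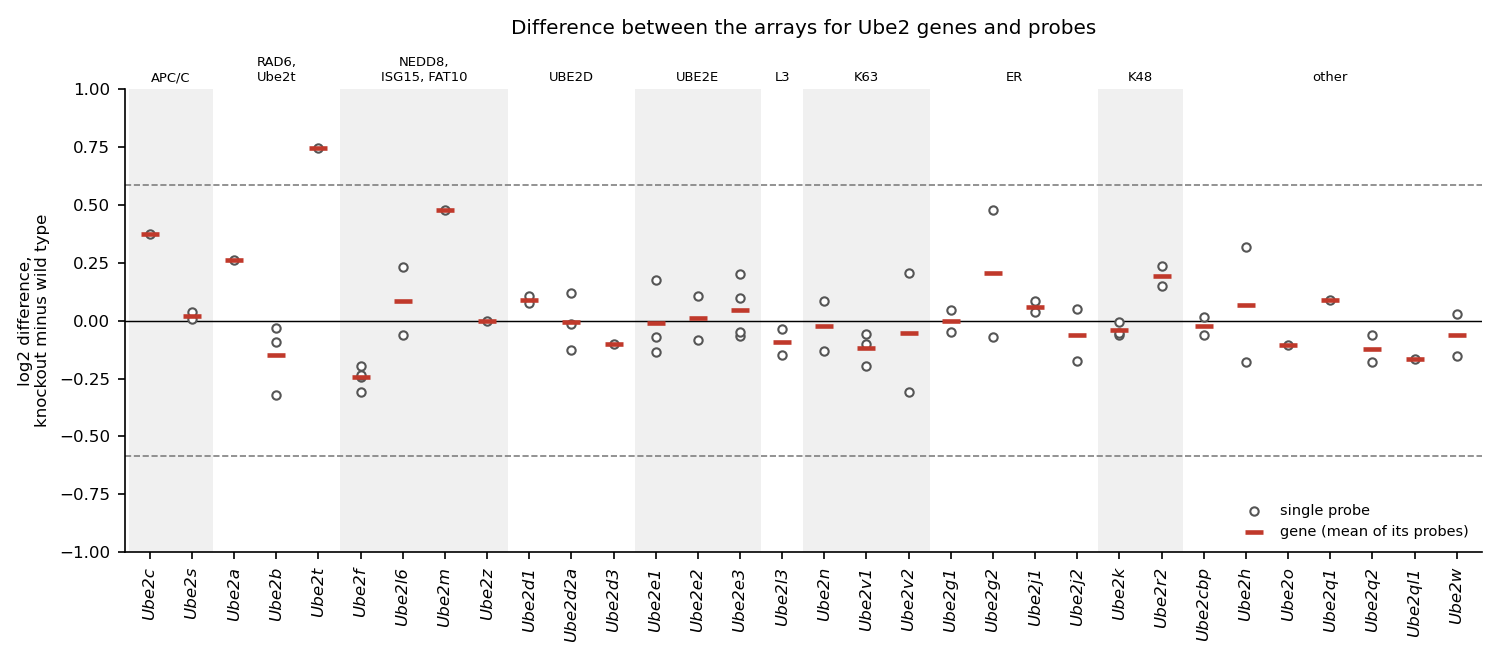
Log2 difference, knockout minus wild type, of 32 Ube2 genes (red bar, mean of the gene's probes) and of each probe (open circle), grouped by role; dashed lines mark 1.5-fold. Ube2t is the only gene beyond a dashed line, at 0.75, Ube2m follows at 0.48 and Ube2f is lowest at -0.25.

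The UBE2D enzymes are general starters that work with a great many E3 ligases. Ube2d3 gave 27024 on the knockout array and 29686 on the wild-type array, a difference of -0.10. Ube2d2a differed by -0.01 over 3 probes between -0.13 and 0.12, and Ube2d1 by 0.09. None of the 3 passed 0.2 in either direction.

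The UBE2E enzymes and Ube2l3 include partners reported for human MUL1. Ube2e2 gave 3152 on the knockout array and 2998 on the wild-type array at its mRNA probe, and 144 on the knockout array and 156 on the wild-type array at a dimmer one, for a gene difference of 0.01. Ube2e3 had 4 probes, 3 of them on the mRNA with 8042, 9008 and 2267 on the knockout array against 8614, 9521 and 2168 on the wild-type array. Its difference was 0.05, and without a dim probe of 21.9 on the knockout array and 19.5 on the wild-type array it was -0.01. Ube2e1, the remaining member of the class, differed by -0.01. Ube2l3, which serves ligases such as Parkin and Arih1 that pass ubiquitin through a cysteine of their own, gave 14019 and 5252 on the knockout array against 15875 and 5503 on the wild-type array, a difference of -0.09. Ube2g2, the other reported partner, had a bright probe with 2396 on the knockout array and 2570.4 on the wild-type array, a difference of -0.07. A probe near background gave 27.9 on the knockout array and 20.5 on the wild-type array, which put its gene mean at 0.20. All 4 reported partners were thus within 0.15 of 0 at their mRNA probes.

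Mul1 itself stood at -0.66, which joins probes that disagreed. A bright one gave 1074 on the knockout array and 3353 on the wild-type array, a difference of -1.61, and a dim one gave 23.1 on the knockout array and 19.3 on the wild-type array, a difference of 0.29. Since the deleted part is not given, whether either probe lies in it is not known here.

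Ube2n builds chains linked through lysine 63, which signal in place of marking for destruction, and does so only with Ube2v1 or Ube2v2 beside it. All 3 genes lay slightly below 0, Ube2n at -0.02, Ube2v1 at -0.12 and Ube2v2 at -0.05, and all 3 lay above 0 with spike-in scaling. For Ube2v2 the gene mean hides a bright probe with 25178 on the knockout array and 31885 on the wild-type array, a difference of -0.31, offset by a dim probe of 31.6 on the knockout array and 28.1 on the wild-type array. Ube2v1 gave 30612, 1743 and 1282 on the knockout array against 33556, 2040 and 1367 on the wild-type array, all lower in knockout.

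Degradation of proteins from the endoplasmic reticulum uses Ube2g1 and Ube2g2 in the cytosol and Ube2j1 and Ube2j2 in the membrane. Ube2g1 differed by 0.00, Ube2j1 by 0.06 and Ube2j2 by -0.06. Syvn1, a ligase of this pathway, was also near level at -0.02.

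Ube2k and Ube2r2 build lysine 48 chains, the signal for the proteasome, Ube2r2 with cullin ligases. Ube2r2 gave 15299.9 and 772 on the knockout array against 14126 and 672 on the wild-type array, a difference of 0.19. Ube2k differed by -0.04 over 3 probes, none beyond the scanner's error. Cdc34, the close relative of Ube2r2, differed by 0.07.

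The remaining enzymes are atypical or less studied. Ube2h, the E2 of the CTLH ligase that contains Maea and Rmnd5a, had probes on opposite sides, 4488 and 944 on the knockout array against 3686 and 1094 on the wild-type array, and a mean of 0.07. Ube2o, which joins E2 and E3 activity in a single large protein, gave 12006 on the knockout array and 13210 on the wild-type array, a difference of -0.11. Ube2w, which ubiquitinates the amino end of proteins, differed by -0.06. Ube2q1, whose loss reduces fertility of female mice, gave 3479 on the knockout array and 3345 on the wild-type array, a difference of 0.09. Its relatives Ube2q2 and Ube2ql1 differed by -0.12 and -0.17, Ube2q2 with 1384 and 268 on the knockout array against 1604.5 and 286 on the wild-type array, and Ube2ql1 with 671 on the knockout array and 770 on the wild-type array. Ube2cbp differed by -0.02.

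No fold is given for the 5 names outside the measured set. Ube2u was well above background on wild type only, at 8.57 on the knockout array and 15.9 on the wild-type array, and its wild-type signal was close to the lowest level that counts as above background. The X-linked Ube2dnl1 gave 6.58 on the knockout array and 2.80 on the wild-type array, and Ube2dnl2 gave 3.40 on the knockout array and 2.77 on the wild-type array. Neither probe of Ube2d2b was well above background on either array, nor was that of Ube2uos.

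How far probes of the same gene differed shows only the disagreement between probes. They read the same pools on the same arrays, so error between pools or arrays is not part of it. Of the 33 genes, 24 had several used probes, whose differences spanned a median of 0.18. All probes lay on the same side of 0 in 10 of these genes and on both sides in 14. The span passed 0.5 in 3 genes, Ube2g2 and Ube2v2 among them. The scanner's own error of a difference was 0.20 at the median probe, and 13 of the 67 probes exceeded theirs. A further 9 genes, Ube2t, Ube2m, Ube2c and Ube2a among them, had 1 used probe and so no such check.

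**Figure D4:**
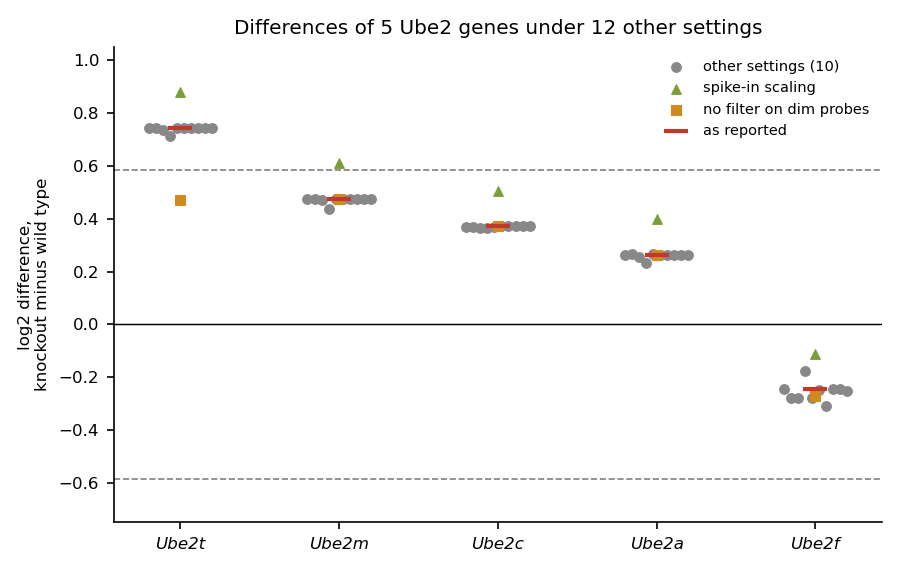
Log2 difference, knockout minus wild type, of 5 Ube2 genes as reported (red bar) and under 12 other settings (points); dashed lines mark 1.5-fold. Ube2t, Ube2m, Ube2c and Ube2a are above 0 and Ube2f below 0 under every setting drawn.

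The promoters of Ube2t and Ube2c, which are active in dividing cells, are shown because both were among the 3 highest in knockout. Each is the 250 bases before the transcript start, taken from RefSeq on build GRCm38.p6, at chr1:134962315-134962564 for Ube2t and chr2:164769679-164769928 for Ube2c, both on the plus strand. Capitals mark CCAAT on either strand, the box bound by the factor NF-Y, and 1 pair of boxes in Ube2c overlaps.
Ube2t: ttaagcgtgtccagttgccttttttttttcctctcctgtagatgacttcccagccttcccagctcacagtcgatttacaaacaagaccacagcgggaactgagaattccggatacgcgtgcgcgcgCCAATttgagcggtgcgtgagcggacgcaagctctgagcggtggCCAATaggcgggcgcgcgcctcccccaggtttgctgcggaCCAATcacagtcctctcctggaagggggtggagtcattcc
Ube2c: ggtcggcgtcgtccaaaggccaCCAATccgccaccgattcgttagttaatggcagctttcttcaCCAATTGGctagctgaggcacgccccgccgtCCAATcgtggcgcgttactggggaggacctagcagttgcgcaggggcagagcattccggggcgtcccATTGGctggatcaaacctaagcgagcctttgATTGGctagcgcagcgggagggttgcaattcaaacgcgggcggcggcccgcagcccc
Ube2t held 3 of these boxes and Ube2c held 6. Of 32851 RefSeq starts, 33.8% held at least 1, 2.79% at least 3 and 0.213% at least 5. Of 37 starts of 26 measured Ube2 genes with an entry, 6 held at least 1 and 3 held at least 3, and the remaining gene with 3 was Ube2f, which was lower in knockout. Ube2m, next to Ube2t in its difference, held none at any of its starts. The letters TTTGAA, the core of the cell cycle homology region, occurred on either strand in 1 place in Ube2c and in no place in Ube2t, and in 15.99% of all starts. It was also found in Ube2f and Ube2z. Ube2s, the other E2 of the anaphase promoting complex, differed by 0.02 and held neither CCAAT nor TTTGAA at its start. A match is a description of these letters, not a binding site.

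The lists of the rest of the relay had medians close to 0, and their counts stand beside 7.84% of all genes at least 1.5-fold higher and 5.19% lower. The 10 E1 genes had a median of 0.00, between -0.10 and 0.28, and none was 1.5-fold apart. The lowest, Uba1y, is a Y-linked copy of Uba1, so its probe may read Uba1 as well. The 8 E2 and E2-like genes without the Ube2 name had a median of 0.04, between Atg3 of the autophagy conjugation pathway at -0.25 and Aktip at 0.32.

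Of 14 ubiquitin and ubiquitin-like modifier genes, 13 were measured, with a median of 0.01. Isg15 was the only gene of that list at least 1.5-fold apart, where 7.84% of all genes were higher and 5.19% lower. Ubb, which encodes ubiquitin, differed by 0.01, and Sumo2 and Sumo3 differed by 0.18 and 0.06.

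Of 36 partner E3 genes, 0 were at least 1.5-fold higher and 3 were lower, with a median of -0.02, where 7.84% of all genes were higher and 5.19% lower. Besides Mul1 these were Fbxo30 at -0.82, with 510 on the knockout array and 921 on the wild-type array from 1 probe, and Ranbp2, a SUMO ligase of the nuclear pore, at -0.60 with probes at -0.91 and -0.29. The highest was the SUMO ligase Pias3 at 0.43. The ligases of the E2 enzymes that stood highest in knockout were not themselves 1.5-fold higher.

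**Figure D5:**
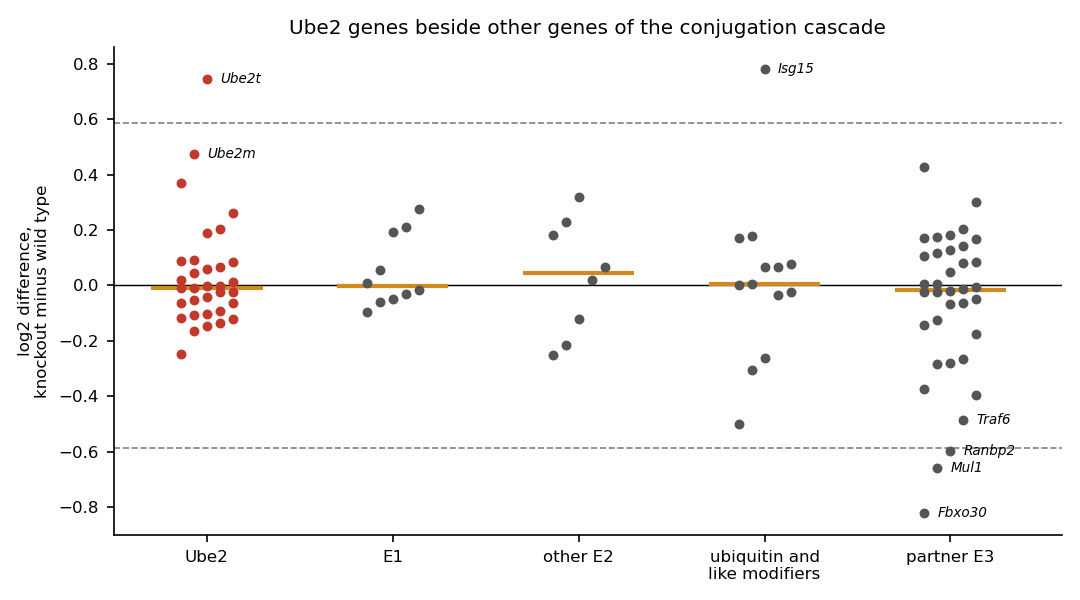
Log2 difference, knockout minus wild type, of each measured Ube2 gene (red) and of genes of the E1, other E2, modifier and partner E3 lists (grey), with each list's median as an orange line; dashed lines mark 1.5-fold. Ube2t and Isg15 lie above the upper line, Mul1, Fbxo30 and Ranbp2 below the lower one, and every list's median lies between -0.02 and 0.04.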

How the data were processed

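Each array's deposited scanner table gives linear spot intensity. Its source was Feature Extraction 10.7.1.1 for design 074809, with probe positions on mm9, per the file headers, although 9.5.1.1 is the version in the submitters' processing notes. The authors' series-wide table of intensity has 56605 probes, with a median of 57.95 in the knockout column. It followed the scanner values with r = 0.99997 across probes on each array. It was used as an alternative.

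From the processed intensity, control spots and outlier spots (84 on the knockout and 88 on the wild-type array) were left out, spots of a probe were averaged on the log2 scale, and each array's 75th percentile (signals of 790 in knockout and 808 in wild type) was subtracted. A gene is the mean of its probes well above background on both arrays, with Python 3.11.15, pandas 2.3.3 and limma 3.58.1 for 2 of the alternatives, loess (span 0.3) and normexp (offset 50). The scanner error of a difference combines the software's errors of both signals. Probes near the lowest signal well above background, 15.8 in knockout and 12.9 in wild type, are imprecise, and 1 array per genotype limits every value. Scripts were tested on simulated data.

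All 38 symbols matched a RefSeq table of GRCm38.p6, which served for names, gene types and promoters. The Ube2 genes, role groups and other lists were chosen with earlier results of these data known. Signals are given for genes at least 1.5-fold apart, the 5 highest and 5 lowest, genes whose probes differ by over 0.5 or are above background on 1 array, the anaphase promoting complex enzymes and the reported MUL1 partners. Signals of further genes were added to describe each role group, and a few genes are not reported here. Counts use 1.5-fold and 2-fold. The 12 alternatives change scaling, background correction, the source of the values, the filter on dim probes, the summary of probes, outlier flags, gene names or the probes used.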

Additional observations from a re-analysis of the deposited data

How the results depend on the processing

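The comparison was recomputed under 12 alternatives, the last of which, probes on RefSeq mRNAs only, was chosen after seeing the data. No result reversed, and 15 of the 33 Ube2 genes kept their sign under all of them, among them Ube2t (0.47 to 0.88), Ube2m (0.44 to 0.61), Ube2c, Ube2a and Ube2f (-0.31 to -0.11). Scaling on 7 spike-in probes moved the median of all genes to 0.16 and that of the Ube2 genes to 0.13, put 29 Ube2 genes above 0 and made 2 at least 1.5-fold higher, Ube2t and Ube2m. Relative to all genes the Ube2 median stayed at -0.04. With no filter on dim probes 1 Ube2 gene was at least 1.5-fold lower, Ube2u, and the 1 that was higher was Ube2dnl1, both near background. Over all genes, 1796 higher and 1190 lower became 719 and 484 with normexp, 5363 and 3281 with no filter on dim probes, 926 and 708 with a stricter filter, 2612 and 767 with spike-in scaling, and 1198 and 430 with mRNA probes only. No paired analysis was possible because each genotype has 1 array. Genes near background are limited by dim signal.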

Other observations

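Genes that act around the Ube2 genes that stood apart were looked up after those values were seen, so these lists were chosen with the result in view and are given as values only. Of 22 cell division genes, all 22 were above 0, where 54.8% of all genes were, with a median of 0.26. With the brightest probe of each gene 21 were above 0, Pttg1 being the exception. They ran between Rrm2, a subunit of ribonucleotide reductase, at 0.03 and Aurkb, the kinase of the chromosomal passenger complex, at 0.83. The mitotic kinase Cdk1 gave 2161 on the knockout array and 1538 on the wild-type array, a difference of 0.52, and its partner Ccnb2 differed by 0.45. Ube2c and Ube2t, which are active in dividing cells, lay at 0.37 and 0.75. Ube2s, the other E2 of the anaphase promoting complex, lay at 0.02. Pools that held somatic cells on both arrays do not show which cells gave these signals.

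The Fanconi anaemia genes, the pathway of Ube2t, lay on both sides of 0. Of 15 measured, 9 were above 0, with a median of 0.12. Fancd2, the substrate of Ube2t, was highest at 0.60 with a dim signal of 94.6 on the knockout array and 63.9 on the wild-type array, and Fancf was lowest at -0.33.

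Among 19 cullins and NEDD8 regulators the median was 0.06 and none was 1.5-fold apart, where 7.84% of all genes were higher and 5.19% lower. Senp8, which processes NEDD8 and removes it from proteins, was highest at 0.46, with 753 on the knockout array and 561 on the wild-type array, and Cul1, the scaffold of SCF ligases, was lowest at -0.25. Cul5, the cullin served by Ube2f, differed by -0.05.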
